A study of Mus musculus with 12 samples.

Results

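The subunits of Polycomb repressive complex 2 (PRC2) were followed in ESCs that lost, or kept, the ubiquitin ligase of Polycomb repressive complex 1 (PRC1). The 10 genes were *Ezh1*, *Ezh2*, *Eed*, *Suz12*, *Jarid2*, *Mtf2*, *Phf1*, *Phf19*, *Aebp2* and *Rbbp7*, chosen by symbol, and they were represented by the 32 of 45037 probe sets annotated to these genes. None of the 32 was shared with another gene. A total of 30 passed a filter on low signals, which asked for a log2 signal above 3.94 on at least 1 array, and 2 probe sets of *Ezh1* did not. The 10 genes stood among 16432 genes measured after the same filter.

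RNA came from 6 ESC lines of 129/B6 hybrid background, with 1 Affymetrix mouse genome array per line before 4-hydroxytamoxifen (OHT-) and 1 on day 2 of OHT treatment (OHT+, 800 nM for 24 h), 12 arrays in all. All lines, OHT- arrays included, were *Ring1A-/-*; *Ring1B fl/fl*; *R26::CreERT2*, so that they lacked Ring1A throughout and lost endogenous Ring1B once OHT had activated the Cre recombinase, which is expressed from the *Rosa26* locus. The lines were 1 mock line with an empty vector, 3 mutant lines with Ring1B (I53S) (#1 and #4) or Ring1B (I53A) (#1), whose substitutions impair the E3 activity, and 2 lines with WT Ring1B (#1 and #3). Each was a puromycin-selected stable transfectant, and the cultures were kept on irradiated MEF feeders or on gelatin, without a record of which array came from which. The probe sets of *Rnf2* (Ring1B) and *Ring1* (Ring1A) do not check the deletion, because no source used here places them relative to the deleted exons.

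PRC2 methylates lysine 27 of histone H3, the mark that many canonical PRC1 complexes recognise, and PRC1 ubiquitinates histone H2A. EZH2 or EZH1 carries the methyltransferase activity and works only together with EED, which reads the methylated histone, and SUZ12, which holds the assembly together. The complex exists in variants: a Polycomb-like protein (MTF2, PHF1 or PHF19) marks PRC2.1, and JARID2 with AEBP2 marks PRC2.2, where JARID2 binds ubiquitinated H2A. The question was therefore whether the RNA supply of PRC2 stayed even when PRC1 was lost or lost its E3 activity.

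The start regions of the core genes are shown because most windows of the members shared a sequence feature that the selection did not use, many CpG dinucleotides. Each sequence runs 5′ to 3′ on the strand of the gene, from 250 bases before to 50 bases after the annotated start (RefSeq, GRCm38.p6), and capitals mark the letters TTTCCCGC or TTTGGCGC, which E2F cell cycle factors are known to bind. The *Ezh2* window is chr6:47594981-47595280 (minus strand), the *Eed* window chr7:89980927-89981226 (minus strand) and the *Suz12* window chr11:79992856-79993155 (plus strand).
Ezh2: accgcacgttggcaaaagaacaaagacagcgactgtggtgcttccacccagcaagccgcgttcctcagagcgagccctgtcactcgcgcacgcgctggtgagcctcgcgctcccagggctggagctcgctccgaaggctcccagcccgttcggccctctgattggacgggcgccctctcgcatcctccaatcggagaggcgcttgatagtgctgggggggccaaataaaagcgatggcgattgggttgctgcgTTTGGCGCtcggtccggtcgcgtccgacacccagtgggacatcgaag
Eed: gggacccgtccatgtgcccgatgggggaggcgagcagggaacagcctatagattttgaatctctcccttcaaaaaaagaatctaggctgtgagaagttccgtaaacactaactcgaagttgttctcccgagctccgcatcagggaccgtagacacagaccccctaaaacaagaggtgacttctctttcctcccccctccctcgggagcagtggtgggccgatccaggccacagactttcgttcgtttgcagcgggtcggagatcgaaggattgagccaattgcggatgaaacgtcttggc
Suz12: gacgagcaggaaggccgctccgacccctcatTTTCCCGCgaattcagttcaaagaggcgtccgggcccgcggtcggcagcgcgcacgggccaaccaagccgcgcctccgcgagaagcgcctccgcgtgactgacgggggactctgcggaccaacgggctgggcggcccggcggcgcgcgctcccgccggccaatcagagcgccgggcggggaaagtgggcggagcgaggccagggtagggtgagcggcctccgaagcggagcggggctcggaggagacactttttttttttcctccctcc
These windows held 31, 17 and 41 CpG dinucleotides in *Ezh2*, *Eed* and *Suz12*. Over the 14 annotated windows of the 10 members the median was 23.5 (from 2 to 41), against 7 over all 32851 windows of the table. The E2F letters, searched on both strands, were in 3 of the 14 windows (21.4%) and in 1.56% of all windows. They began 3 bases after the start in *Ezh2*, 219 bases before it in *Suz12* and 208 bases before it in *Phf19*. Both E2F sequences contain a CpG, and the share in windows of like CpG count was not counted. A match describes the letters only, and binding was not measured in these data.

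None of the 10 genes and none of the 30 probe sets passed the test in any comparison. The OHT effect was estimated by limma with each line as its own block, separately for the mock, mutant and WT lines, and a gene was called at an adjusted p under 0.05 over all genes tested. In the mutant lines 0 of the 10 member genes were called, where 6.46% of all genes were, and 0 of the 30 member probe sets, where 2.58% of all probe sets were. In the mock line 0 of 10 genes were called, where 1.67% of all genes were, and 0 of 30 probe sets, where 0% of all probe sets were. In the WT lines, and in the differences between classes (mutant minus WT, mock minus WT, mock minus mutant, and mutant minus WT before OHT), 0% of all genes and of all probe sets passed, so that an absence of calls says nothing particular about the members there. At an unadjusted p under 0.05, the count of member genes was 0 for the mutant lines (23.7% of all genes), 1 for the mock line (19.9%) and 1 for the WT lines (7.61%). The gene was *Phf1* both times. The p-values measure the spread between these lines, and the mock line, being 1 line, takes its spread from the others.

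The sizes are better read from the lines themselves. The log2 change, OHT+ minus OHT-, of a gene is the mean over its kept probe sets. It stayed under 0.5 in size (1.41-fold) in all 6 lines for 9 of the 10 genes, all but *Phf1*, a condition that 48.5% of all genes met. In the values as deposited only 5 of the 10 genes met it, as did 34.9% of all genes, and *Ezh1*, *Ezh2*, *Eed* and *Phf19* were then outside as well, with -0.79 for *Eed* and -0.66 for *Ezh2* in the mock line. For single probe sets after quantile normalization, the condition held for 21 of 30, where 37.1% of all probe sets met it. Over the 10 genes the change had a median of 0.03 in the mock line, -0.04, -0.01 and -0.08 in I53S #1, I53S #4 and I53A cells, and 0.01 and 0.10 in the WT #1 and #3 lines, while that of all genes lay between -0.01 and 0.01 in each line. The arrays had been brought to a common distribution. In the values as deposited, the median effect over all genes was -0.34 in the mock line, -0.13 for the mutant lines and 0.01 for the WT lines, and the median of the members was -0.38, -0.17 and 0.00 there. Of the 10 members, 5, 6 and 5 had an effect below 0 in the mock, mutant and WT lines, and 9, 9 and 5 did so in the values as deposited. In a bulk culture, fewer cells of a type and less RNA per cell cannot be told apart.

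**Figure D1:**
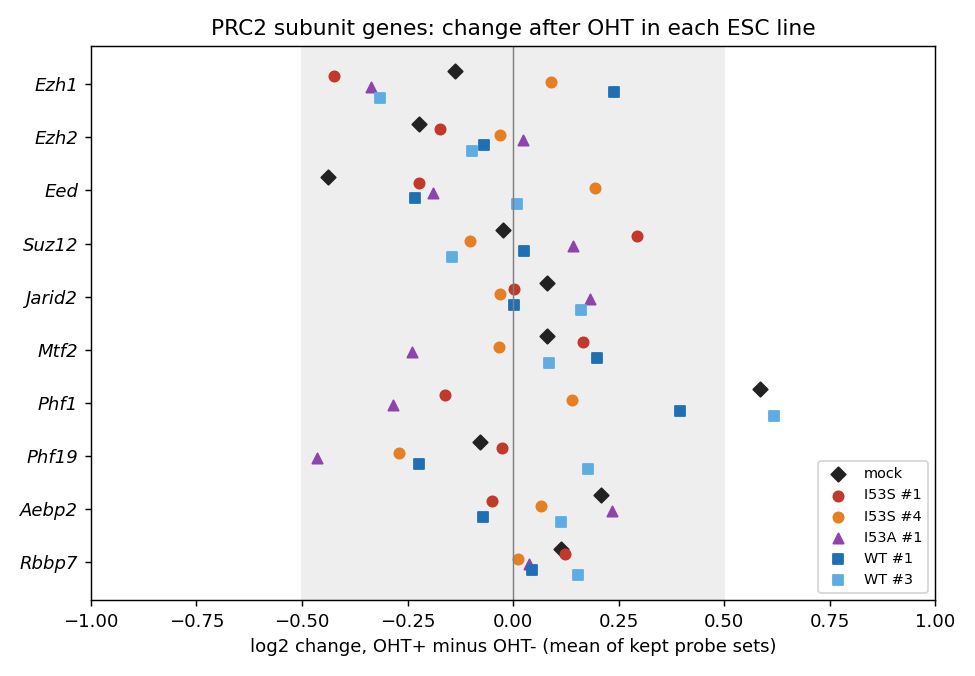
Log2 change (OHT+ minus OHT-) of each PRC2 gene after quantile normalization, as the mean of its kept probe sets, with 1 point per ESC line and shading from -0.5 to 0.5. All points lie in the shaded range except those of *Phf1* in the mock line (0.59) and the WT #3 line (0.62).

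How far the effects could lie from 0 was given by their 95% confidence intervals. In the mutant lines the interval lay within -0.5 to 0.5 for 8 of the 10 genes and 18 of the 30 probe sets, and within -1 to 1 for all 10 genes and all 30 probe sets. The same held for 8 genes and 17 probe sets in the WT lines at 0.5. In the mock line 3 genes and 1 probe set had an interval within 0.5, and 9 genes and 24 probe sets had one within 1. A 1.41-fold change of most subunits was thus outside the interval in the mutant lines, whereas in the mock line only larger changes were.

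**Figure D2:**
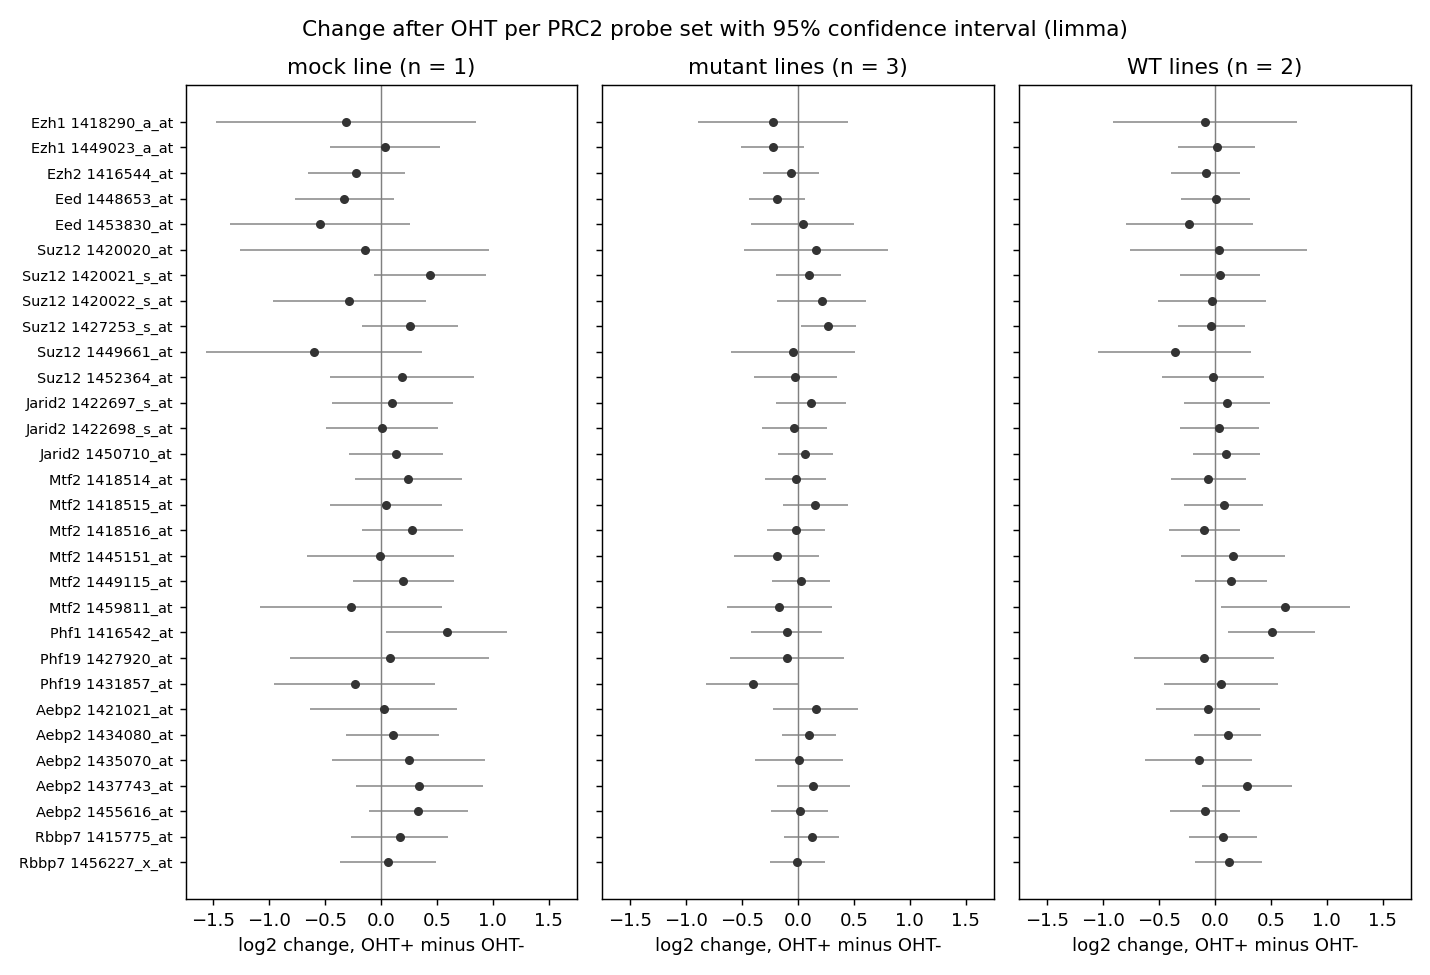
Log2 effect of OHT on each of the 30 kept PRC2 probe sets with its 95% confidence interval from limma, for the mock line (n = 1), the 3 mutant lines and the 2 WT lines. The intervals are widest in the mock line (median width 1.05) and narrowest in the mutant lines (median width 0.60).

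*Ezh2*, the main methyltransferase of proliferating cells, was read by 1 bright probe set. Its log2 signal in the mock line was 10.96 at OHT+ and 11.19 at OHT-. It was 11.09, 11.21 and 11.41 at OHT+ and 11.26, 11.24 and 11.39 at OHT- in I53S #1, I53S #4 and I53A cells, and 11.39 and 11.17 at OHT+ and 11.46 and 11.27 at OHT- in the WT #1 and #3 lines. The 12 values overlapped between treatments and between classes, and the lowest was the mock OHT+ array. The change was -0.22 in the mock line (95% interval -0.66 to 0.21), -0.06 in the mutant lines (-0.31 to 0.19, SE 0.10) and -0.08 with WT Ring1B (-0.39 to 0.22). In the values as deposited, *Ezh2* read -0.66 in the mock line, where the median of all genes read -0.34.

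*Ezh1*, the less active paralogue that also compacts chromatin, had 2 kept probe sets. The brighter one, 1449023_a_at, had a log2 signal of 7.12 at OHT+ and 7.08 at OHT- in the mock line. In I53S #1, I53S #4 and I53A cells it read 6.90, 6.91 and 7.25 at OHT+ and 7.33, 7.07 and 7.33 at OHT-. In the WT #1 and #3 lines it read 7.12 and 7.15 at OHT+ and 7.09 and 7.14 at OHT-. All 3 mutant lines had a lower value at OHT+ and the mock and WT lines did not, but the effect in the mutant lines, -0.23 (SE 0.11, 95% interval -0.51 to 0.06), had a limma adjusted p of 0.343. In the values as deposited 1449023_a_at read -0.28 in the mock line, and this order ended there. The share of all probe sets with the same order was not counted. The dimmer *Ezh1* probe set, 1418290_a_at, lay between 4.71 and 5.91, and the 2 probe sets correlated at 0.11 over the 12 arrays.

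*Eed*, the reader of methylated H3, had a bright probe set whose changes ordered the lines by class. Probe set 1448653_at had a log2 signal of 11.77 at OHT+ and 12.10 at OHT- in the mock line. It read 11.60, 11.89 and 11.66 at OHT+ and 11.91, 11.999 and 11.80 at OHT- in I53S #1, I53S #4 and I53A cells, and 11.93 and 12.12 at OHT+ and 11.93 and 12.12 at OHT- in the WT #1 and #3 lines. The changes were -0.33 in the mock line, -0.32, -0.11 and -0.13 in the mutant lines, and 0.01 in both WT lines, so that the 4 lines without WT Ring1B were below both WT lines. This order was found for 2 of the 30 member probe sets (the other was *Mtf2* 1459811_at) and for 11.1% of all probe sets. The effect was -0.19 (SE 0.10, 95% interval -0.44 to 0.07, limma adjusted p = 0.381) for the mutant lines and -0.33 (adjusted p = 0.417) for the mock line, and mutant minus WT was -0.19 (95% interval -0.60 to 0.21, adjusted p = 0.74). With trended and robust priors in limma the mutant effect on this *Eed* probe set passed (adjusted p = 0.0399). Of all probe sets, 10.9% passed in the mutant lines with those priors. The second *Eed* probe set, 1453830_at, lay near the filter, between 3.78 and 4.50, and did not follow the first (r = 0.08), and the mean of both read 0.19 in the I53S #4 line.

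*Suz12*, the scaffold, had 6 kept probe sets that did not all move together. Their 15 pairs correlated between -0.06 and 0.80 over the 12 arrays, with a median of 0.19. Probe set 1427253_s_at had a log2 signal of 10.60 at OHT+ and 10.34 at OHT- in the mock line, 10.36, 10.54 and 10.59 at OHT+ and 10.16, 10.23 and 10.29 at OHT- in I53S #1, I53S #4 and I53A cells, and 10.30 and 10.41 at OHT+ and 10.40 and 10.37 at OHT- in the WT #1 and #3 lines. All 4 lines without WT Ring1B had larger changes (0.26, 0.21, 0.30 and 0.30) than both WT lines (-0.10 and 0.04), an order met by 1 of 30 member probe sets and by 11.1% of all. In the values as deposited this *Suz12* probe set read -0.17 in the mock line, and the order ended there. The effect in the mutant lines was 0.27 (SE 0.10, 95% interval 0.02 to 0.52, limma adjusted p = 0.219). It passed with trended and robust priors (adjusted p = 0.0141), where 10.9% of all probe sets passed.

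The brightest *Suz12* probe set, 1420021_s_at, read 11.68 at OHT+ and 11.24 at OHT- in the mock line, a change of 0.44 (adjusted p = 0.353), which passed with trended and robust priors only (adjusted p = 0.03) and was 0.01 in the values as deposited. With those priors 6.66% of all probe sets passed in the mock line. The effect on 1420021_s_at was 0.10 for mutant and 0.04 for WT lines. The 4 other *Suz12* probe sets had effects between -0.60 and 0.19 in the mock line, among them -0.60 for 1449661_at, which read 6.21 at OHT+ and 6.81 at OHT-. The mean over all 6 was -0.02 in the mock line and 0.11 for mutant lines (95% interval -0.16 to 0.38).

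*Rbbp7*, a histone chaperone that PRC2 shares with NuRD, Sin3 and CAF-1, gave bright and even signals. The gene mean was 12.55 at OHT+ and 12.44 at OHT- in the mock line, 12.62, 12.81 and 12.45 at OHT+ and 12.49, 12.80 and 12.41 at OHT- in I53S #1, I53S #4 and I53A cells, and 12.55 and 12.56 at OHT+ and 12.50 and 12.41 at OHT- in the WT #1 and #3 lines. The change was positive and small in all 6 lines, between 0.01 and 0.15. A positive change in all 4 lines without WT Ring1B was found for 19.6% of all genes, and in the values as deposited *Rbbp7* read -0.30 in the mock line and -0.12 and -0.14 in the I53S #4 and I53A lines. The effect was 0.11 in the mock line, 0.06 for mutant lines (95% interval -0.15 to 0.27) and 0.10 for WT lines.

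**Figure D3:**
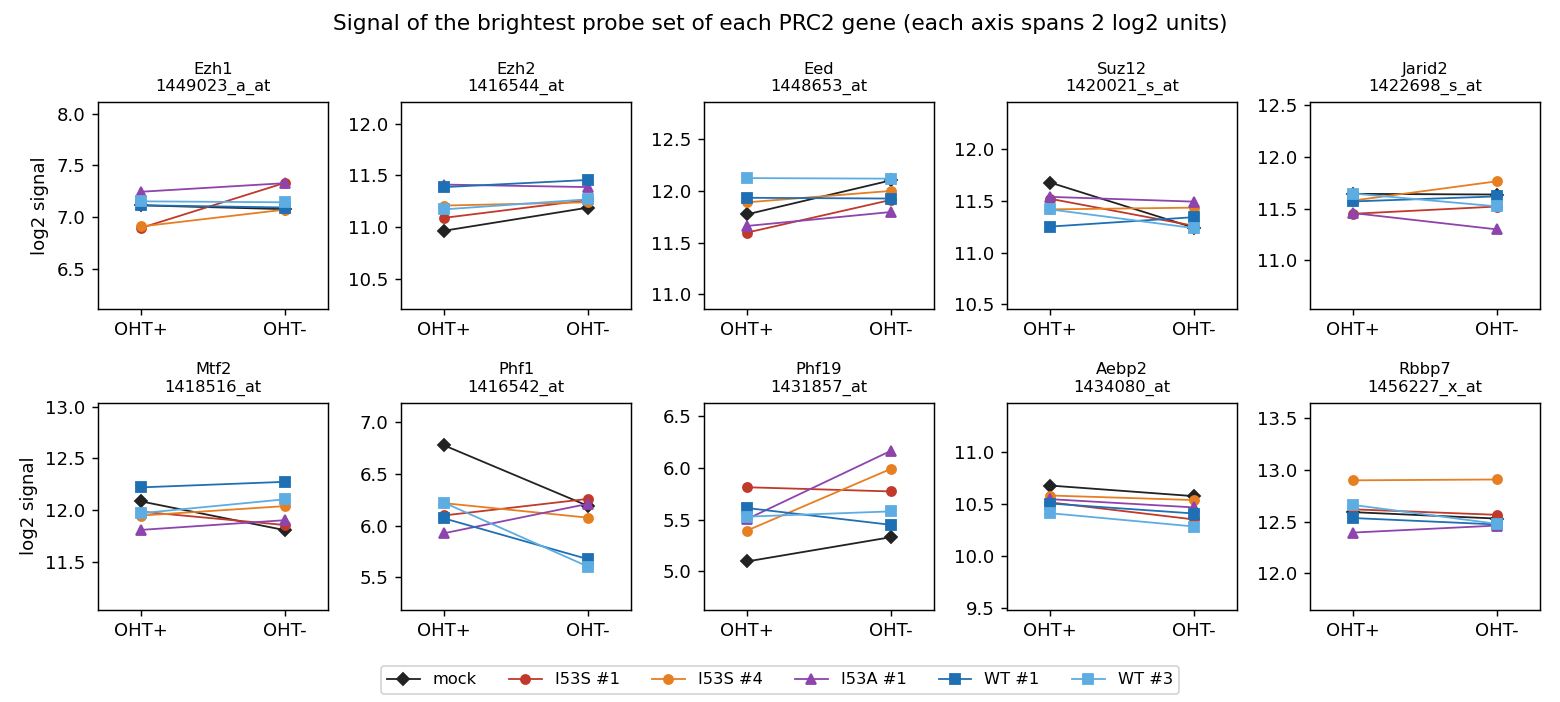
Log2 signal of the brightest kept probe set of each PRC2 gene at OHT+ (left) and OHT- (right), with 1 line per ESC line; every vertical axis spans 2 log2 units, so slopes can be compared and levels of different probe sets cannot. The lines are close to flat in most panels, and *Phf1* shows the steepest slopes, with the mock OHT+ array at 6.77.

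Of the Polycomb-like subunits of PRC2.1, *Mtf2*, the main one in ESCs, was read by 6 kept probe sets, 4 of them bright. Probe set 1418516_at had a log2 signal of 12.08 at OHT+ and 11.81 at OHT- in the mock line. It read 11.99, 11.95 and 11.81 at OHT+ and 11.86, 12.04 and 11.90 at OHT- in I53S #1, I53S #4 and I53A cells, and 12.22 and 11.97 at OHT+ and 12.27 and 12.11 at OHT- in the WT #1 and #3 lines. OHT+ and OHT- values overlapped within the mutant and within the WT lines, and both WT OHT- values lay above the OHT- values of the 4 other lines. Over the 6 probe sets, the *Mtf2* change was 0.08 in the mock line, 0.17, -0.03 and -0.24 in I53S #1, I53S #4 and I53A cells, and 0.20 and 0.09 in the WT lines. The effect in the mutant lines was -0.04 (95% interval -0.30 to 0.23). The dim *Mtf2* probe set 1459811_at had the widest spread of all member probe sets, from 3.88 to 5.99 over the 12 arrays, and its WT effect of 0.63 did not pass (limma adjusted p = 0.662).

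*Phf1*, read by 1 dim probe set, had the largest changes of the 10 genes after quantile normalization. In the values as deposited *Phf1* changed by 0.26 in the mock line, less in size than *Eed* (-0.79) and *Ezh2* (-0.66) did. Its log2 signal was 6.77 at OHT+ and 6.19 at OHT- in the mock line, 6.10, 6.22 and 5.93 at OHT+ and 6.26, 6.08 and 6.21 at OHT- in I53S #1, I53S #4 and I53A cells, and 6.07 and 6.22 at OHT+ and 5.67 and 5.60 at OHT- in the WT #1 and #3 lines. Both WT lines were below the 4 others before OHT and close to the mutant lines after it, and the mock OHT+ array was highest. None of this passed the test over all genes. Mutant minus WT was -0.61 for the OHT effect (SE 0.18, 95% interval -1.06 to -0.15, limma adjusted p = 0.275) and 0.54 before OHT (adjusted p = 0.886), 2 values that share the OHT- arrays. The effect was 0.59 in the mock line (adjusted p = 0.197), -0.10 for mutant lines (adjusted p = 0.653) and 0.51 for WT lines (adjusted p = 0.562), and mock minus mutant was 0.69 (adjusted p = 0.569).

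*Phf19*, the third Polycomb-like subunit, was dim in these cells. The gene mean was 4.99 at OHT+ and 5.07 at OHT- in the mock line, 5.36, 5.24 and 5.14 at OHT+ and 5.39, 5.51 and 5.61 at OHT- in I53S #1, I53S #4 and I53A cells, and 5.23 and 5.51 at OHT+ and 5.45 and 5.33 at OHT- in the WT #1 and #3 lines. *Phf19* was the gene below 0 in all 4 lines without WT Ring1B (-0.08, -0.03, -0.27 and -0.46), which 17.8% of all genes were, and it was also below 0 in the WT #1 line (-0.22). The effect in the mutant lines, -0.25 (SE 0.13, 95% interval -0.57 to 0.07), had a limma adjusted p of 0.307. Most of it came from probe set 1431857_at, at -0.41 (adjusted p = 0.263), and the other, 1427920_at, read -0.10.

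*Jarid2*, the PRC2.2 subunit that binds ubiquitinated H2A, was even after quantile normalization. The gene mean of 3 bright probe sets was 11.40 at OHT+ and 11.32 at OHT- in the mock line, 11.21, 11.34 and 11.21 at OHT+ and 11.21, 11.37 and 11.03 at OHT- in I53S #1, I53S #4 and I53A cells, and 11.34 and 11.34 at OHT+ and 11.34 and 11.18 at OHT- in the WT #1 and #3 lines. Its 12 values spanned 0.37, the narrowest range of the 10 genes. The effect was 0.08 in the mock line (95% interval -0.32 to 0.48), 0.05 for mutant lines (-0.18 to 0.28) and 0.08 for WT lines. In the values as deposited *Jarid2* read -0.35 in the mock line, where the median of all genes read -0.34.

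*Aebp2*, the zinc finger partner in PRC2.2, was read by 5 kept probe sets. The gene mean was 7.98 at OHT+ and 7.77 at OHT- in the mock line, 7.63, 7.87 and 8.03 at OHT+ and 7.68, 7.81 and 7.80 at OHT- in I53S #1, I53S #4 and I53A cells, and 7.92 and 7.89 at OHT+ and 7.99 and 7.77 at OHT- in the WT #1 and #3 lines. The highest and the lowest value were both from mutant lines at OHT+. The effect was 0.21 in the mock line (95% interval -0.22 to 0.64), 0.08 for mutant lines (-0.16 to 0.33) and 0.02 for WT lines.

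Before OHT, the 6 values of a gene spanned between 0.26 (*Eed*) and 0.66 (*Phf1*), while the largest change of a gene in any line was between 0.15 (*Rbbp7*) and 0.62 (*Phf1*). Mutant minus WT before OHT was between -0.18 (*Ezh1*) and 0.54 (*Phf1*) over the 10 genes, and the limma adjusted p was 0.886 or higher in each. For *Ezh2*, *Eed* and *Suz12* it was -0.07, -0.10 and 0.03.

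The class of the lines was also compared directly. Mutant minus WT for the OHT effect was 0.02 for *Ezh2* (95% interval -0.32 to 0.37), 0.04 for *Eed* (-0.43 to 0.51), 0.17 for *Suz12* (-0.26 to 0.60) and -0.03 for *Jarid2* (-0.40 to 0.34). Mock minus WT was -0.14 for *Ezh2* (-0.60 to 0.32), -0.33 for *Eed* (-0.95 to 0.30), 0.03 for *Suz12* (-0.54 to 0.61) and 0.00 for *Jarid2* (-0.49 to 0.49). These intervals are wider than those of the effects themselves, and a difference of 0.5 in the core subunits lay inside several of them.

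How even the members were depended on how bright they were, as for all probe sets. The 14 member probe sets with a mean log2 signal over 10, of 7 genes, had 84 changes (14 probe sets in 6 lines). After quantile normalization these were between -0.33 and 0.44, that is, between 0.796-fold and 1.35-fold. In the values as deposited 2 of the bright probe sets, *Eed* 1448653_at (-0.75) and *Ezh2* 1416544_at (-0.66), were outside this range in the mock line. The difference between the highest and lowest of the 12 quantile normalized arrays was 0.38 to 0.67 for the 14 probe sets (median 0.48). The median was 0.49 over the 3243 probe sets of that brightness. The 11 member probe sets with a mean up to 7 spanned 0.71 to 2.11 (median 1.07), against a median of 1.14. The medians of the members were thus close to those of other probe sets of like brightness.

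**Figure D4:**
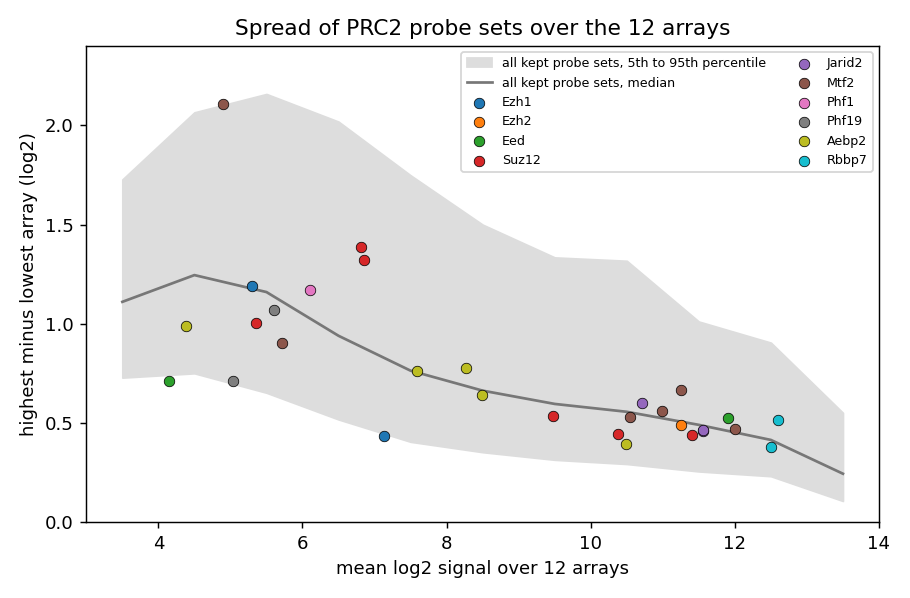
Highest minus lowest log2 signal over the 12 arrays against the mean log2 signal, for the 30 kept PRC2 probe sets (points, coloured by gene) and all kept probe sets (line, median; shading, 5th to 95th percentile). Of the member points, 7 of the 14 with a mean over 10 lie below the median of all probe sets of that brightness.

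Other parts of the H3K27 system were read beside the members. For the gene counts of this and the next paragraph, the share of all genes that passed was 1.67% in the mock line, 6.46% in the mutant lines and 0% in the WT lines. Of 7 further PRC2 partners (among them *Rbbp4*, *Epop* and *Lcor*), 7 were measured and 0 passed in any effect of OHT, with a median effect of 0.19 (mock), 0.18 (mutant) and -0.04 (WT lines). Of 5 H3K27 demethylase genes, 5 were measured. Of these, 1 passed as lower in the mock line, where 0.383% of all genes did, and none passed in the mutant or WT lines. It was *Uty*, the Y-linked homologue of *Kdm6a*, at 4.14 at OHT+ and 5.45 at OHT- in the mock line (-1.31, limma adjusted p = 0.0414), a call that ended (adjusted p between 0.0737 and 0.0869) without any 1 mutant or WT line. Of the 5 values, 3 were below 0 in mock cells (median -0.27), 5 in the mutant lines (median -0.37) and 5 in the WT lines (median -0.15). *Uty*, 1 of the 5, read between 3.02 and 3.24 on the arrays of the I53A and WT lines. This is below the level of 3.94 used for the filter, so that its sign there is poorly measured. Of 7 genes for H3K27 acetyltransferases or H3K36 methyltransferases, which oppose PRC2, 6 were measured and 0 passed (medians -0.11, -0.07 and -0.02 for mock, mutant and WT lines).

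Complexes that share *Rbbp7* had 15 of 17 genes measured and 0 called, with medians of -0.07, 0.01 and 0.06 in the same order. All 8 Jumonji and ARID relatives of *Jarid2* were measured, and 1 fell in the mutant lines, where 1.55% of all genes were called lower. This was *Arid5b*, with changes of -0.59, -0.78 and -0.45 in I53S #1, I53S #4 and I53A cells against 0.14 and -0.07 in the WT lines (effect -0.61, limma adjusted p = 0.0308). Of 20 proliferation genes, 19 were measured and 0 passed (medians -0.01, -0.07 and -0.01). The median of all genes was between -0.01 and 0.00 in the same 3 effects.

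Targets of Polycomb repression did change on the same arrays. Of 39 *Hox* genes, which PRC1 and PRC2 repress in ESCs, 30 were measured. The filter asked for only 1 array above 3.94, so that a silent gene could enter the 30 by rising, and this selection favours genes that rose. Of the 30, 10 rose in mock cells and 12 in mutant lines, where 1.29% and 4.91% of all genes were called higher. With WT Ring1B 0 passed, where 0% of all genes did. In the differences between these classes 0 of the 30 passed, and 0% of all genes, so that the counts alone do not set the classes apart. Median effects were 1.44, 0.43 and 0.11 in mock, mutant and WT lines. The largest in the mutant lines were *Hoxd1* (2.17, limma adjusted p = 0.00405), *Hoxa10* (2.15, 0.00537) and *Hoxd9* (1.79, 0.0115). The OHT- signals of *Hoxa10* in these lines (3.54, 3.37 and 3.83) lay below the level of 3.94 used for the filter. Those of *Hoxd1* (4.16, 4.04 and 4.44) lay close above it, so that the sizes of both changes are poorly measured. Without I53S #1, I53S #4 or I53A, 7, 6 and 4 *Hox* genes rose in the mutant lines that were left, and without either WT line 10 did. In the mock line 0 did so without any 1 of these 5 lines, and over all genes the mock calls were then 0 as well, so that the background there rests on all of them.

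**Figure D5:**
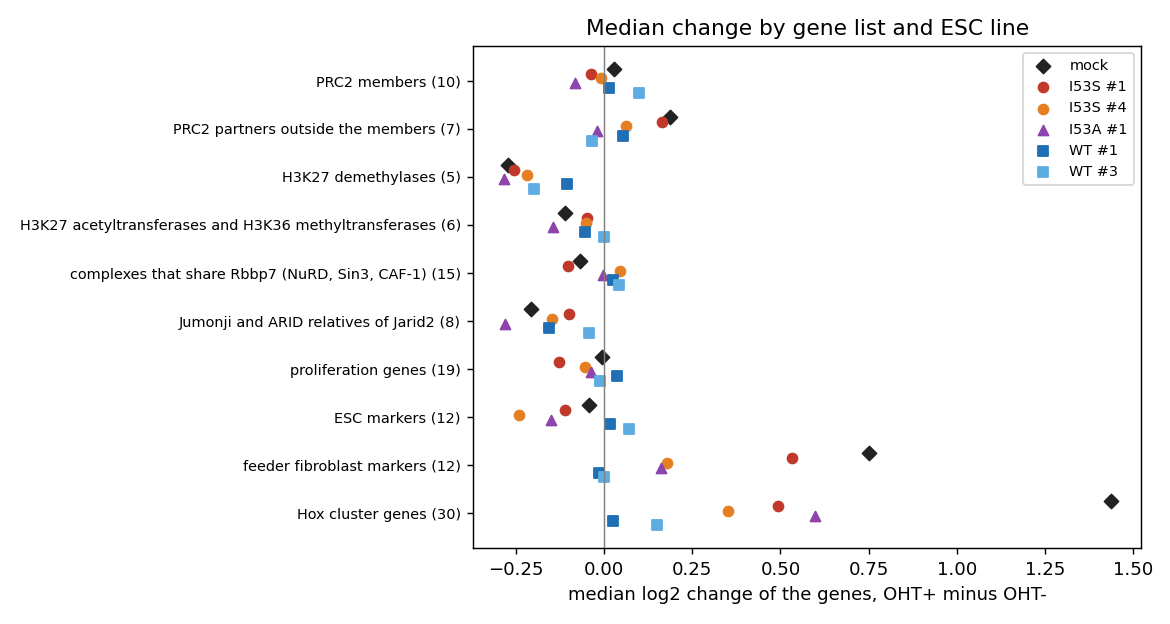
Median log2 change (OHT+ minus OHT-) of each gene list after quantile normalization, with its number of measured genes, and 1 point per ESC line. The 10 PRC2 genes lie between -0.08 and 0.10 in all 6 lines, while the 30 *Hox* genes lie at 1.44 in the mock line.

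Markers of ESCs were read on all arrays. Of 12 ESC markers 12 were measured, with a summed linear signal of 53668 at OHT+ and 55049 at OHT- in the mock line, between 52379 and 58410 at OHT+ and between 52154 and 62351 at OHT- in the mutant lines, and 57919 and 61987 at OHT+ and 55994 and 59884 at OHT- in the WT lines. The lowest was *Utf1*, at a log2 signal of 6.26 or more on all arrays. Of the 12 ESC markers, *Klf4* rose in the mutant lines (0.55, limma adjusted p = 0.0354), where 4.91% of all genes did, and the 11 others did not pass. The median effect over the 12 was -0.04 in mock cells, -0.23 for mutant and 0.05 for WT lines, with 7, 7 and 3 of 12 below 0. *Sox2* read -0.59 in mock cells and -0.33 for mutant lines, and *Pou5f1* read -0.49 and -0.22 (limma adjusted p between 0.0884 and 0.213). Of 14 feeder fibroblast markers, 12 were measured, none at 0, and their summed linear signal was 2856 at OHT+ and 1701 at OHT- in the mock line, 2710, 1446 and 1113 at OHT+ and 1637, 1249 and 1056 at OHT- in I53S #1, I53S #4 and I53A cells, and 799 and 1107 at OHT+ and 784 and 1124 at OHT- in the WT #1 and #3 lines. The sum was clearly higher at OHT+ in the mock and I53S #1 lines, less so in I53S #4, and changed little in I53A and WT lines. Of the 12 markers, 0, 0, 1 and 5 were below 0 in the mock, I53S #1, I53S #4 and I53A lines. In each WT line 6 were. *Thy1*, a fibroblast surface protein, rose in mutant lines (0.68, limma adjusted p = 0.0186) and in mock cells (1.32, adjusted p = 0.0366). The part of the ESC and fibroblast markers in the PRC2 values was not tested. Among the housekeeping genes, of which 6 of 9 were measured, *B2m* rose in the mutant lines (0.68, limma adjusted p = 0.0255), as did 4.91% of all genes. The changes of *Arid5b*, *Klf4*, *Thy1* and *B2m* kept their sign in the mock and mutant lines in the values as deposited and after centring on array medians. Without any 1 mutant line none of these 4 passed in the mutant lines (adjusted p between 0.0891 and 0.146), and without either WT line *Arid5b* (0.0553) and *Klf4* (0.0669) did not. In the mock line *Thy1* did not pass without any 1 mutant or WT line (adjusted p between 0.0723 and 0.0834).

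As a description of likeness, the genes whose 12 values followed those of *Ezh2* most closely were *Gnmt* (r = 0.94), *Isca2* (r = 0.94) and *Snrnp27* (r = 0.93), over arrays of which each line gave 2.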

How the data were processed

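Total RNA was hybridised to Affymetrix mouse genome arrays. The values that the authors deposited are log2 signals, 1 for every probe set on every array. The submitters' processing notes name Affymetrix Expression Console and RMA with no version, whereas the study's methods describe MAS5 signals and quantile normalization, and the array medians of the deposited log2 values differ (4.66 to 5.67). All arrays were therefore quantile normalized here in R 4.3.3. Of 45037 probe sets (64 controls left out), 34945 have 1 symbol in the platform annotation and only these were used for genes. Probe sets were kept if 1 or more arrays read above 3.94, which is percentile 30 over all signals (37446), and were averaged per gene (16432). Fits were made by lmFit and eBayes of limma 3.58.1, with statmod 1.5.0 (two-sided tests, 3 residual and 2.79 prior degrees of freedom for genes, 2.64 for probe sets), with each line as its own block, an OHT term per class, and Benjamini-Hochberg adjustment over all features. The mock class has 1 line and its spread is that of the others. The comparison before OHT used the OHT- arrays, with no block. Arrays of a line carry the same number, and their deviations from the class mean correlated at 0.27 in the WT lines and from 0.36 to 0.43 in the mutant lines. No copied array was found. The fit was tested on simulated data. Alternatives were values as deposited, arrays centred on their medians, other filters, no block or a random block, the I53S lines alone, trended and robust priors, an added condition of a log2 change above 0.5, and each line left out. The named genes are all members, up to 3 called genes of each other list with the largest change, and the 3 genes most like *Ezh2*. The members and lists were chosen with earlier results of these data known. The number of arrays limits the precision.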

Additional observations from a re-analysis of the deposited data

How the results depend on the processing

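The counts of PRC2 probe sets and genes that passed the test were 0 in all 7 comparisons, and 0 under each alternative run except trended and robust priors. With these, 2 member probe sets passed in the mutant lines (*Suz12* 1427253_s_at, log2 effect 0.27, adjusted p = 0.0141, and *Eed* 1448653_at, -0.19, adjusted p = 0.0399) and 1 in the mock line (*Suz12* 1420021_s_at, 0.44, adjusted p = 0.03). The cause was not tested. Leaving out each line in turn gave 0 member calls. In several of these runs no feature of the whole series passed, so that an absence of member calls was certain there. Among them were the probe sets in the mutant lines without any 1 mutant line, and all features in the mock line. The fit with no replicate block, which drops the pairing by line, gave 0 member calls as well, and the comparison before OHT has no block because each line gives it 1 array. Of 4042 single member values under alternatives, 3802 stayed within 1 SE of the reported value, 237 moved by more without a call and 3 were called. Many of the 3802 could not move. The effect itself is the same with no block, a random block, trended and robust priors or the added condition. It is also the same when a line outside the classes compared is left out. The count is therefore no measure of stability. With trended and robust priors, 10.9% of all probe sets passed for the mutant class, where 2 of the 30 member probe sets did. For the mock class the share was 6.66%, where 1 of the 30 did. Calls over all features also moved across these alternatives, but they are counted among far more features than the member calls. Their larger range in number therefore does not show that the members were steadier. For genes the calls over all features ran from 153 to 2219 in the mutant lines and from 0 to 1340 in the mock line, and for probe sets from 0 to 4072 and from 0 to 2494. In the mutant lines 153 genes passed without I53A (equal to the I53S lines alone), 161 without I53S #1, 194 without I53S #4 and 735 without either WT line, against 1062 with all lines. Of the 10 members, 9 changed by less than 0.5 in every line after quantile normalization or centring on array medians, and 5 did so in the values as deposited. The few arrays leave wide intervals in the mock line, where changes under a log2 value of 0.5 were mostly within the interval.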
